A study of Mus musculus with 4 samples.

Results

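The Adamts genes encode secreted zinc metalloproteases that cut proteins of the extracellular matrix. Members were taken by gene symbol, as every transcript on the array that a RefSeq accession ties to 1 of 10 listed genes: Adamts16, Adamts18, Adamts17, Adamts19, Adamts1, Adamts2, Adamts4, Adamts5, Adamts9 and Adamts12. Of the 10, 9 were found, each with 1 transcript, among 17277 named genes, and Adamts9 was not analysed here. RNA was measured in testes of male mice at postnatal day 9 on one-colour NimbleGen arrays with 60mer probes, with 3 arrays labelled Dmrt1 KO and Cre-positive and 1 array labelled control and Cre-negative. All 4 arrays carry the label DHH-cre. The Desert hedgehog gene is active in Sertoli cells, which nurse the germ cells inside the tubules, so the driver targets Dmrt1 in that cell type while the RNA came from the whole organ. The labels do not say whether the 3 Dmrt1 KO arrays came from separate animals, so the spread between these arrays may be technical. Any p-value rests on that spread, drawn for each transcript towards the spread of all transcripts. The single control array has no spread of its own.

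An ADAMTS protease is made as an inactive precursor, cut by a furin-like convertase, secreted, and held in the matrix by thrombospondin type 1 repeats. Its substrates are large proteoglycans such as versican and aggrecan, the propeptides of fibrillar collagens, and glycoproteins such as the fibulins, and tissue inhibitors of metalloproteases restrain it. In the gonads the family is best known from the ovary, where Adamts1 takes part in ovulation, and rats that lack Adamts16 have undescended testes and infertile males.

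Deposited intensities had medians of 1005 to 1011 on the 4 arrays, ran from 23.9 to 65156, and carried no detection calls, so no transcript can be placed above or below background. Dmrt1 itself had 9623, 10633 and 12959 in the 3 Dmrt1 KO arrays, against 18252 in the control array, a difference of -0.73 on the log2 scale with every Dmrt1 KO array below the control. By limma it missed the threshold (adjusted p = 0.586), and the sources used here do not place the probes relative to the deletion. Dmrt1 KO array 1 stood apart in 2 of the 6 markers listed for the epididymis and ducts. Its Crisp1 intensity was 339, against 49.9 and 39.4 in Dmrt1 KO arrays 2 and 3 and 43.0 in the control array, and its Spink8 intensity was 1039, against 51.5 and 65.1 and a control value of 77.4. The other 4 markers did not single out that array in this way. Lcn5 lay between 51.6 and 57.9 on all 4 arrays, Rnase10 had 66.2, 82.8 and 67.0 in the Dmrt1 KO arrays, against 86.9 in the control array, and Pax2 had 650, 463 and 320, against 496 in the control array. Pax8, which carries most of the sum of the list in 3 of the 4 arrays, had 2086, 2405 and 1911 in the Dmrt1 KO arrays, against 1519 in the control array. The summed intensity of the 6 markers was 4236, 3109 and 2455 in the Dmrt1 KO arrays, against 2280 in the control array.

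Adamts16 (NM_172053) was several times brighter in every Dmrt1 KO array than in the control array. Its intensity was 621, 1004 and 1293 in the 3 Dmrt1 KO arrays, against 175 in the control array. The groups did not overlap, and the lowest Dmrt1 KO array was array 1, the one with the high Crisp1 and Spink8 values. The mean of the Dmrt1 KO arrays was 973 ± 337 (SD, n = 3), and on the log2 scale 9.86 ± 0.54, against a single value of 7.46. The difference was 2.41, a 5.30-fold higher level, with 1.82, 2.52 and 2.88 for the separate Dmrt1 KO arrays. With Dmrt1 KO array 1, 2 or 3 left out it was 2.70, 2.35 and 2.17. In whole-organ RNA, more cells of a type and more RNA per cell cannot be told apart.

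The listed genes were chosen by a rule that uses the Dmrt1 KO minus control differences of these same 4 arrays. That of Adamts16 ranked 11th highest of 25631 transcripts, so these values describe the gene and carry no test. For the same reason the count of members past a threshold supports nothing. In the limma fit over all transcripts 1 of the 9 members passed an adjusted p under 0.05, Adamts16, while 0.655% of all transcripts passed in either direction, 0.156% as higher and 0.499% as lower. With intensities under 100 set to 100, 0 members passed. Adamts16 was also the 1 member at least 2-fold from the control in every Dmrt1 KO array, a bound that 1.15% of all transcripts met in either direction and 0.398% met as higher.

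**Figure D1:**
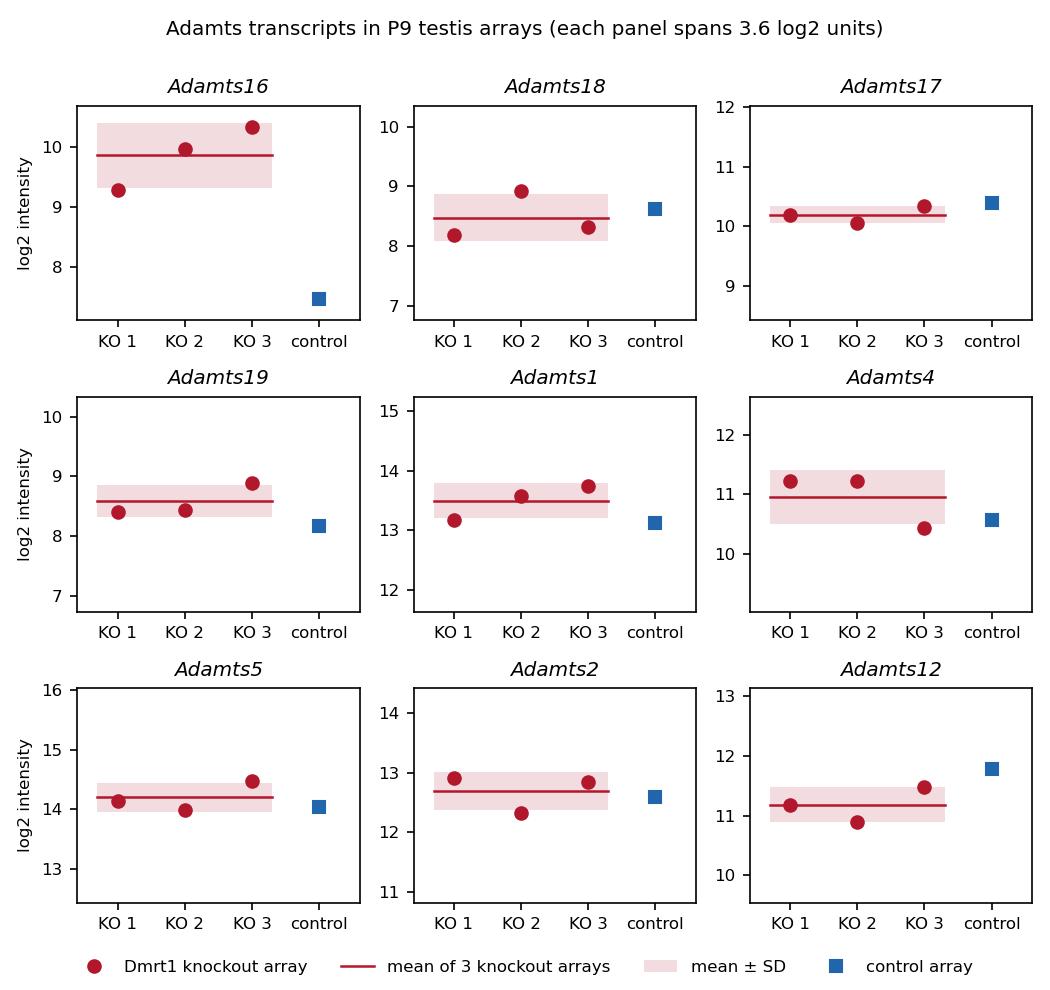
Log2 intensity (vertical axis) of the 9 Adamts transcripts in the 3 Dmrt1 KO arrays (red circles, with the mean as a line and the SD as a band) and in the control array (blue square); every panel spans the same number of log2 units. Adamts16 has its 3 Dmrt1 KO arrays between 9.28 and 10.34 and its control array at 7.46, while in the other panels the difference between the mean of the Dmrt1 KO arrays and the control array is at most 0.60.

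The arrays of the Dmrt1 KO group differed more among themselves for Adamts16 than for most transcripts. Its SD over these 3 arrays, which the control value does not enter, was 0.54 on the log2 scale, at the 95.9th percentile of all transcripts, whose median SD was 0.21. The median SD of the 9 members was 0.29. Dmrt1 KO array 3 gave the highest of the 3 values for 6 of the 9 members, namely Adamts16, Adamts19, Adamts1, Adamts5, Adamts17 and Adamts12, and for 35.2% of all transcripts. The members share the 3 arrays, so these 6 are not separate observations.

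Adamts18, the closest relative of Adamts16 in sequence, did not share its difference. Its intensity was 290, 487 and 319 in the Dmrt1 KO arrays, against 395 in the control array, which lay inside the range of the Dmrt1 KO arrays. The difference was -0.15 on the log2 scale, smaller than the SD of 0.40 among the Dmrt1 KO arrays.

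Adamts17 and Adamts19 form another pair of close relatives, with few known substrates. Mutations in human ADAMTS17 cause a short-stature syndrome with eye defects, and mutations in human ADAMTS19 cause heart valve disease. Adamts17 had 1163, 1067 and 1297 in the Dmrt1 KO arrays, against 1337 in the control array. All 3 Dmrt1 KO arrays were below the control, the third only just, with a mean difference of -0.19. Adamts19 had 340, 348 and 476 in the Dmrt1 KO arrays, against 288 in the control array. Its 3 Dmrt1 KO arrays were all above the control, and the difference was 0.41, with an SD of 0.27 among them.

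Adamts1, Adamts4 and Adamts5 encode the enzymes best known for cutting versican and aggrecan, and their differences from the control lay between 0.16 and 0.40 on the log2 scale. Adamts1 had 9244, 12165 and 13748 in the Dmrt1 KO arrays, against 8916 in the control array, with no overlap but with array 1 only 0.05 above the control on the log2 scale. Its mean difference was 0.38. Adamts4 had 2395, 2391 and 1391 in the Dmrt1 KO arrays, against 1517 in the control array. Dmrt1 KO array 3 lay below the control and the other 2 above it, and the mean difference of 0.40 was smaller than the SD of 0.45. Adamts5 had 17990, 16336 and 22749 in the Dmrt1 KO arrays, against 16859 in the control array, an overlap with a mean difference of 0.16.

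Adamts2 removes the amino-terminal propeptide of fibrillar procollagens, and Adamts12 cuts cartilage oligomeric matrix protein. Adamts2 had 7680, 5136 and 7374 in the Dmrt1 KO arrays, against 6145 in the control array, so the groups overlapped and the difference was 0.11. Adamts12 had 2314, 1899 and 2855 in the Dmrt1 KO arrays, against 3519 in the control array. Every Dmrt1 KO array was lower than the control, with separate differences of -0.60, -0.89 and -0.30. The mean difference of -0.60 was the lowest of the members, with an SD of 0.29 among the 3.

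Across the 9 members, 3 had all Dmrt1 KO arrays above the control (Adamts16, Adamts19 and Adamts1), 2 had all below (Adamts17 and Adamts12) and 4 overlapped. Of all transcripts 49.8% had the 3 Dmrt1 KO arrays on one side of the control, 25.6% above and 24.2% below. The median difference of the members was 0.16, and 0.13 without Adamts16, beside 0.00 for all transcripts. The other 8 members ran from -0.60 to 0.41, and Adamts16 stood 1.99 log2 units above the next member, Adamts19.

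The Adamts genes outside the list did not pass the test. Of 9 such genes 6 were measured, with 0 higher and 0 lower in limma's test and 0 at an unadjusted p under 0.05. The shares of all transcripts are 0.655% for limma's test in either direction and 6.42% for the unadjusted p. Adamts8, known as an inhibitor of vessel growth, had 1244, 1217 and 2107 in the Dmrt1 KO arrays, against 1082 in the control array, a difference of 0.44 ± 0.34 (SE, 3 Dmrt1 KO arrays and 1 control array). Dmrt1 KO array 3 was the brightest of the 4 arrays by a wide margin, and the other 2 lay just above the control. Adamts20, known from the white spotting of belted mice, was at 0.29 ± 0.26, and Adamts15, a versican-cutting enzyme, at 0.20 ± 0.32. Adamts13, which cuts von Willebrand factor, was at -0.15 ± 0.31, Adamts7, a relative of Adamts12, at -0.04 ± 0.26, and Adamts10, a relative of Adamts17, at 0.04 ± 0.30. The median of the 6 was 0.12.

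**Figure D2:**
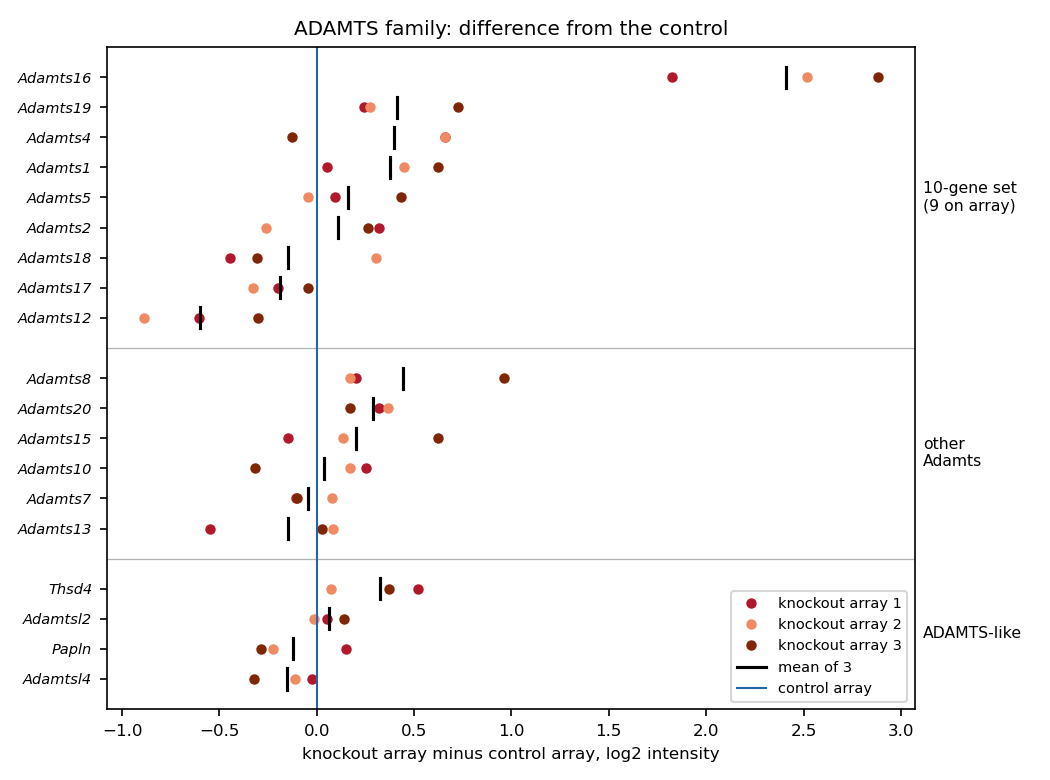
Log2 intensity of each Dmrt1 KO array minus the control array (horizontal axis; circles, 1 colour per array) and the mean of the 3 (black bar) for the 9 listed Adamts genes, the 6 other Adamts genes and 4 ADAMTS-like genes, with the control at 0. Adamts16 is at 1.82 to 2.88, while the means of the other genes lie between -0.60 and 0.44.

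ADAMTS-like proteins have the thrombospondin repeats without the protease, and several of them are part of fibrillin microfibrils. Of 7 such genes 4 were measured, and 0 passed in either direction in limma's test, with 0 at an unadjusted p under 0.05. Limma's test called 0.655% of all transcripts, and 6.42% met that last bound. Thsd4 was at 0.32 ± 0.28 (SE), Adamtsl2 at 0.06 ± 0.25, Papln, which encodes papilin, at -0.12 ± 0.28 and Adamtsl4 at -0.15 ± 0.26. Their median was -0.03.

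**Figure D3:**
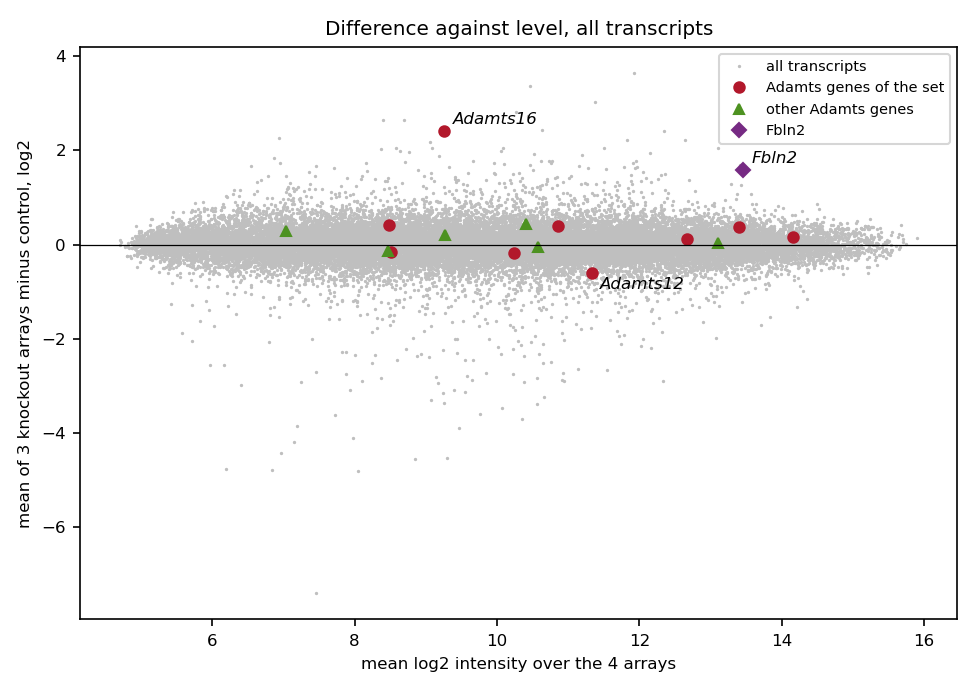
Mean log2 intensity over the 4 arrays (horizontal axis) against the mean of the 3 Dmrt1 KO arrays minus the control array (vertical axis, log2) for all 25631 transcripts (grey), with the listed Adamts genes (red circles), other Adamts genes (green triangles) and Fbln2 (purple diamond). Adamts16, at 2.41, and Fbln2, at 1.59, lie above the cloud, and the other marked genes lie within it.

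Among the substrates of ADAMTS proteases, Fbln2 rose. It encodes fibulin-2, a glycoprotein of basement membranes and elastic fibres. Its intensity was 12394, 14952 and 17342 in the Dmrt1 KO arrays, against 4917 in the control array, so the groups did not overlap and each Dmrt1 KO array was more than 2-fold brighter. The difference was 1.59 ± 0.28 (SE; limma, adjusted p = 0.0372), over a range of 0.00366 to 0.427 across the alternatives. The call was lost without Dmrt1 KO array 3 (adjusted p = 0.0533) and with intensities under 100 set to 100 (adjusted p = 0.427).

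Bcan, which encodes brevican, a proteoglycan best known from brain, was also brighter in every Dmrt1 KO array without passing the test. Its intensity was 7713, 7145 and 5121 in the Dmrt1 KO arrays, against 3055 in the control array, and the difference was 1.10 ± 0.30 (limma, adjusted p = 0.252). Tfpi2, a serine protease inhibitor, was at 0.73 ± 0.27 and Col2a1, the cartilage collagen, at -0.61 ± 0.26, both with the groups apart and an adjusted p of 0.560 and 0.721. Col2a1 was dim, with 56.2, 65.4 and 60.9 in the Dmrt1 KO arrays, against 92.8 in the control array.

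In all, 1 of 20 measured substrate genes rose, 0 fell and 19 did not pass, with 4 at an unadjusted p under 0.05. Their median was 0.04. Of all transcripts, 0.156% passed as higher, 0.499% passed as lower and 6.42% had an unadjusted p under 0.05. The aggrecan gene Acan was at -0.30 ± 0.25, the fibronectin gene Fn1 at 0.05 ± 0.31 and the cartilage oligomeric matrix protein gene Comp at -0.40 ± 0.26. Of the other fibrillar collagen genes, Col1a1 was at 0.08 ± 0.26, Col1a2 at 0.13 ± 0.25 and Col3a1 at 0.31 ± 0.27, the last with all 3 Dmrt1 KO arrays above the control. Versican (Vcan) was not analysed here.

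**Figure D4:**
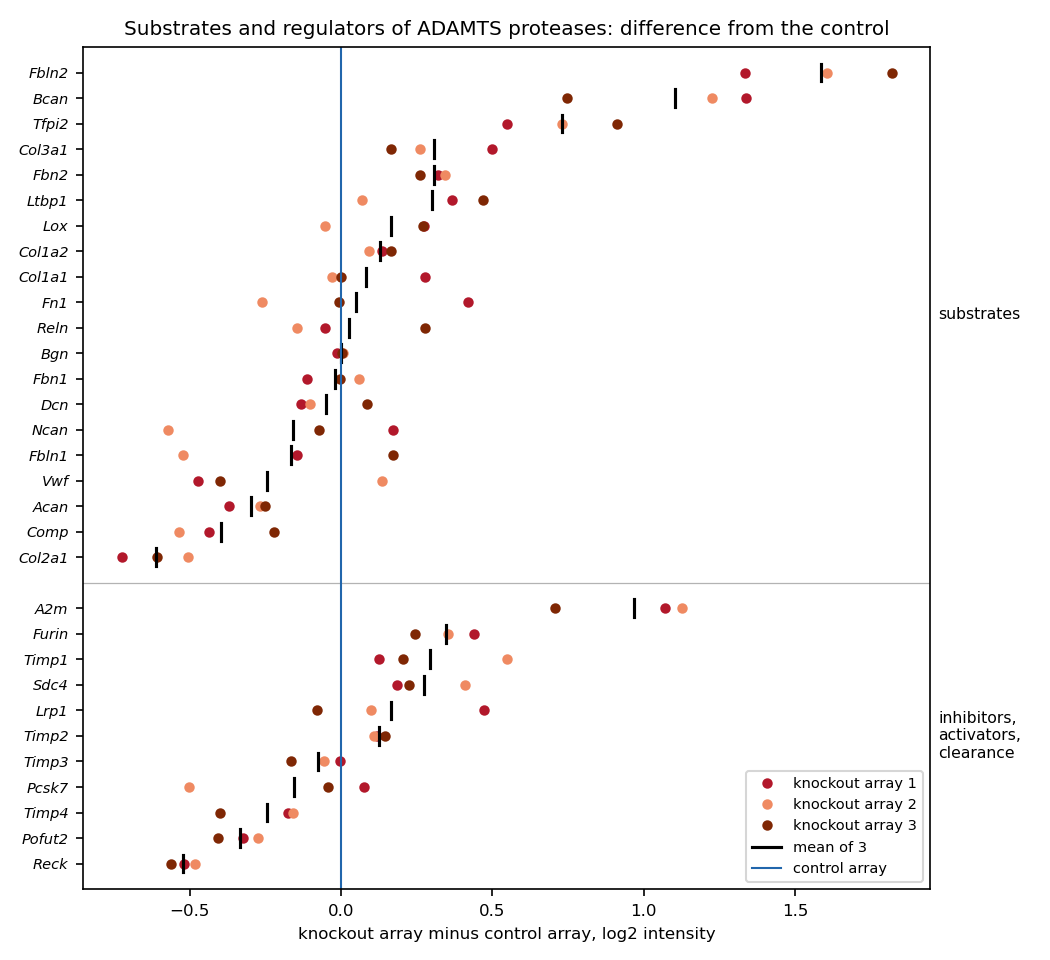
Log2 intensity of each Dmrt1 KO array minus the control array (horizontal axis; circles, 1 colour per array) and the mean of the 3 (black bar) for 20 substrate genes and 11 genes of inhibition, activation and clearance of ADAMTS proteases, with the control at 0. Fbln2 is at 1.59, followed by Bcan at 1.10 and A2m at 0.97, and the lowest mean is that of Col2a1 at -0.61.

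Genes that inhibit, activate or clear ADAMTS proteases did not pass in either direction. Of 11 measured genes limma called 0, beside 0.655% of all transcripts, and their median was 0.12. An unadjusted p under 0.05 was met by 1 gene, beside 6.42% of all transcripts. That gene was A2m, the protease trap alpha-2-macroglobulin, with 630, 655 and 490 in the Dmrt1 KO arrays, against 300 in the control array. Its difference was 0.97 ± 0.28 (limma, adjusted p = 0.302). Timp3, the tissue inhibitor that acts most strongly on ADAMTS4 and ADAMTS5, was at -0.08 ± 0.25, while Timp1, Timp2 and Timp4 were at 0.29, 0.12 and -0.24. Furin, the convertase that removes the propeptide, was at 0.35 ± 0.25, and Reck, a membrane-anchored inhibitor, at -0.52 ± 0.25. Pofut2, which adds fucose to thrombospondin repeats, was at -0.34 ± 0.25, and Lrp1, the receptor that clears several of these enzymes, at 0.16 ± 0.29.

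Genes of the membrane-bound ADAM proteins, a related family, showed no call among 10 measured genes in limma's test, beside 0.655% of all transcripts. Their median was 0.08, and 0 had an unadjusted p under 0.05, beside 6.42% of all transcripts. The 4 with the smallest p were Adam10 at -0.51 ± 0.25, Adam33 at 0.46 ± 0.25, Adam8 at 0.40 ± 0.27 and Adam23 at 0.29 ± 0.26.

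The genes whose 3 differences lay nearest to those of Adamts16 were Fam155a, Mdfic, Hspb8, Pipox and Rgn. Nearness was the root mean square distance over the 3 Dmrt1 KO minus control differences, and it was 0.39 for Fam155a, 0.40 for Mdfic, 0.45 for Hspb8 and 0.48 each for Pipox and Rgn, against a median of 2.45 over 17276 genes. Fam155a, a subunit of a sodium leak channel, had differences of 1.69, 2.16 and 2.31. Mdfic, an inhibitor of MyoD family factors, had 1.34, 2.43 and 2.40, and Hspb8, a small heat shock protein, had 1.85, 1.95 and 2.34. Pipox, a sarcosine oxidase, had 2.46, 2.44 and 2.36, and Rgn, the calcium-binding protein regucalcin, had 1.73, 1.85 and 2.38. For all of these but Pipox the lowest of the 3 was Dmrt1 KO array 1, as for Adamts16. The 5 share the control array with Adamts16 and were found by searching all genes, so their likeness is a description of 4 arrays.

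The genes directly beside Adamts16 on chromosome 13 were not analysed here. The nearest named genes on the array lay 10 to 26 annotated genes away. Med10, a Mediator subunit, and Nsun2, an RNA methyltransferase, lay 16 and 26 genes away on one side, at 0.00 ± 0.25 and -0.38 ± 0.26. The Iroquois transcription factor genes Irx1 and Irx2 lay 10 and 17 genes away on the other side, at -0.38 ± 0.31 and -0.39 ± 0.27. limma called 0 of these 4, beside 0.655% of all transcripts, and 0 had an unadjusted p under 0.05, beside 6.42%. Irx1 had 310, 314 and 483 in the Dmrt1 KO arrays, against 471 in the control array, so its groups overlapped.

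**Figure D5:**
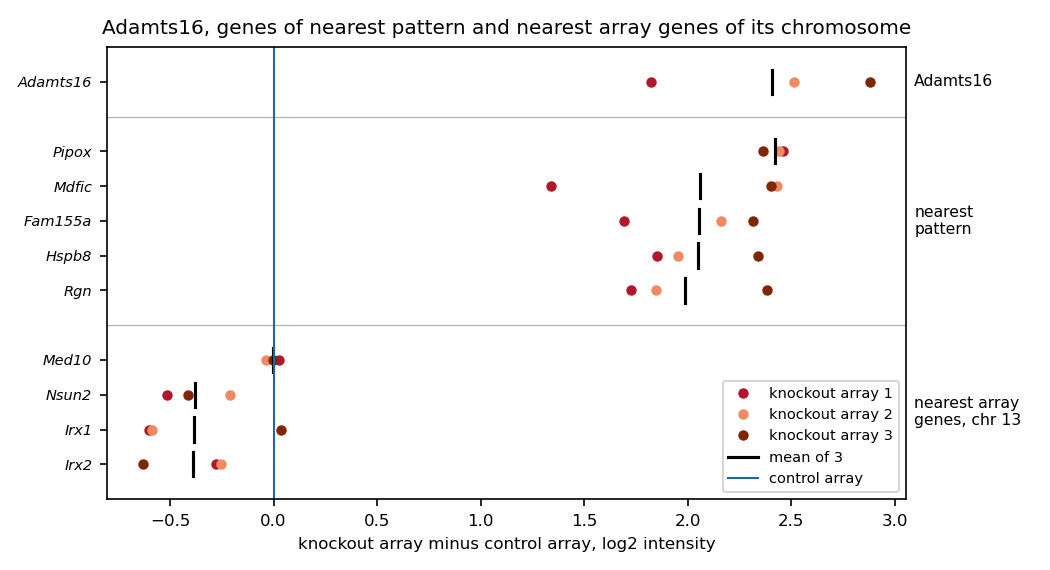
Log2 intensity of each Dmrt1 KO array minus the control array (horizontal axis; circles, 1 colour per array) and the mean of the 3 (black bar) for Adamts16, the 5 genes of nearest pattern and the 4 genes of chromosome 13 nearest to it among those named on the array, 10 to 26 annotated genes away, with the control at 0. The 5 genes of nearest pattern have means of 1.99 to 2.42, and the 4 genes of chromosome 13 have means of -0.39 to 0.00.

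Markers of the cell types of the testis gave 2 calls among 81 measured genes of 10 lists, both in Sertoli cells. Of all transcripts, 0.655% were called. The cystatin gene Cst9 fell by 2.89 on the log2 scale and the claudin gene Cldn11 fell by 1.72 (limma, adjusted p = 0.0111 and 0.0211). The summed intensity of the 13 Sertoli markers was 114269 to 124842 in the Dmrt1 KO arrays, against 170465 in the control array. Clu, Cst9 and Cldn11 were the markers with the largest drops in intensity. Of the 13 markers, 7 had all 3 Dmrt1 KO arrays below the control, beside 24.2% of all transcripts. Of these 7 markers, Fshr at -1.12, Tsx at -0.98, Clu at -0.62, Sox9 at -0.56 and Amh at -0.05 did not pass. Another 4 markers had all 3 Dmrt1 KO arrays above the control, beside 25.6% of all transcripts, and did not pass. They were Gata4 at 0.51, Wt1 at 0.42, Dhh at 0.39 and Amhr2 at 0.12. Sox8 at -0.17 and Inhbb at -0.09 had overlapping groups. The Sertoli list had 5 genes at an unadjusted p under 0.05, beside 6.42% of all transcripts. The summed intensity of the 10 granulosa markers was 26652 to 30666 in the Dmrt1 KO arrays, against 20341 in the control array. Inha carried most of that sum and most of its excess over the control. Its intensity was 20252, 23316 and 18997 in the Dmrt1 KO arrays, against 13371 in the control array. A gene this bright in a control testis is not particular to granulosa cells, so the sum cannot count them. Foxl2 had 746, 502 and 362 in the Dmrt1 KO arrays, against 369 in the control array, so its groups overlapped. The granulosa list had 0 calls and 3 genes at an unadjusted p under 0.05, in both directions. Irx3 was at -1.87 ± 0.36 (limma, adjusted p = 0.0575) and more than 2-fold lower in every Dmrt1 KO array, Inha was at 0.64 ± 0.26 and Cyp19a1, the aromatase gene, at 0.72 ± 0.30. The summed intensity of the 8 interstitial fibroblast markers was 164321 to 180227 in the Dmrt1 KO arrays, against 156795 in the control array, and that of the 8 endothelial markers 36694 to 40969, against 31070 in the control array. It was 16682 to 19400 in the Dmrt1 KO arrays, against 13563 in the control array, for the 7 macrophage markers. For the 7 Leydig cell markers it was 80265, 113641 and 125912 in Dmrt1 KO arrays 1, 2 and 3, against 84870 in the control array. Cyp17a1, the brightest of these markers, had 25468, 47328 and 53542, against 30891 in the control array. Of the 7 Leydig cell markers, 4 had a mean difference above 0. The summed intensity of the 10 germ cell markers was 166216 to 186573 in the Dmrt1 KO arrays, against 161568 in the control array. The 6 markers of peritubular myoid and smooth muscle cells summed to 31852 to 35878 in the Dmrt1 KO arrays, against 36010 in the control array. The 6 adipose markers summed to 8676, 5109 and 4593 in Dmrt1 KO arrays 1, 2 and 3, against 4766 in the control array. Among these, Pparg had 6219, 3131 and 2484 in the Dmrt1 KO arrays, against 2808 in the control array. Median differences of the 10 lists ran from -0.17 for Sertoli cells to 0.34 for Leydig cells. Of the 8 lists other than Sertoli and granulosa cells, with 0 calls, germ cells, Leydig cells, macrophages and adipose cells had 1 gene each at an unadjusted p under 0.05, myoid and smooth muscle cells had 2, and the other lists had 0. The part of any of these cell types in the Adamts16 value was not tested.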

How the data were processed

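Whole-testis RNA was measured on 4 one-colour arrays. The authors deposited linear intensity values, 1 per RefSeq transcript and array, made with RMA (background correction, quantile normalisation and probe summary) per the submitters' processing notes; the sources used here do not give its version, settings or probes. Here log2 was taken above a floor of 1. Accessions without version were matched to RefSeq genes of GRCm38.p6, which named 17780 of 25631 transcripts, 69.4%. Coordinates are left out because the array is older than that assembly.

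Each transcript was fitted with limma 3.58.1 in R 4.3.3 (lmFit, eBayes; Dmrt1 KO minus control; two-sided; Benjamini-Hochberg over all transcripts), with 2 residual and 7.97 prior degrees of freedom. The spread came from the Dmrt1 KO arrays, drawn by the prior towards that of all transcripts, and the control array is taken to vary as much. The transcript with the highest mean stood for a gene in the lists. The fit was also run on simulated data whose spread was drawn from the prior fitted to these arrays. That run cannot check the unknown spread of the single control array. Gene lists came from textbook knowledge. The members, lists, tests and alternatives were chosen with earlier results of these data known. All members, each list's called genes and up to 4 with the smallest p were eligible to be named, with the 5 genes of nearest pattern and the 2 nearest genes on each side of Adamts16 that the array names; further list genes were chosen after their values were seen. The number of arrays limits the precision.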

Additional observations from a re-analysis of the deposited data

How the results depend on the processing

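No paired analysis was possible because a single control array was measured, and every alternative kept it. The Adamts16 difference was 2.17 to 2.70 on the log2 scale when 1 Dmrt1 KO array was left out, and its call was kept in 10 of 12 alternatives. Both exceptions set intensities under 100 to 100: the members then had 0 calls, all transcripts 6 lower and 0 higher calls, and substrates 0. That floor made 2386 transcripts equal on all arrays and the prior degrees of freedom fell to 0.612, against 7.97. With those transcripts left out, an alternative chosen after seeing the data, the counts were 0 for members, 16 lower, 1 higher and 0 for substrates. Higher calls over all transcripts were 40, against 58 to 62 with 1 array left out, 69 with an intensity trend in the prior and 75 at an adjusted p under 0.10. With 1 array left out the substrates had 0 to 1 calls, the median of the inhibitors, activators and clearance genes was 0.00967 to 0.132 and that of the ADAM genes 0.0709 to 0.248. The median of the other Adamts genes was 0.0352 with the lowest 25% of levels left out. The other 8 members' differences moved by less than the SD of their Dmrt1 KO arrays in every alternative. No scaling moved the median of all transcripts by over 0.1.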
